A study of Acomys cahirinus and Mus musculus with 10 samples.

Results

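The 8 genes described here encode collagens of the basement membrane and of its attachment to the tissue on either side: *Col4a1*, *Col4a2*, *Col4a5*, *Col4a6*, *Col7a1*, *Col15a1*, *Col17a1* and *Col18a1*. They were chosen by symbol, with earlier results of these data known, and each was measured in both species. In *A. cahirinus*, the Egyptian spiny mouse, each was 1 of 659480 assembly components in the D5 table. In *M. musculus* each was 1 of 23023 gene numbers in the D5 table. A hole of 4 mm was punched through the ear pinna, and RNA was taken from ear tissue before injury (D0) and from the tissue around the hole at D5, D10, D15 and D20. The labels call injured tissue regenerating in *A. cahirinus* and fibrotic in *M. musculus*, and the animals were sexually mature females, of the outbred CD1 strain in *M. musculus*. The study compared 3 animals of a species at each time point, which makes 10 groups, and no group carried a transgene or a treatment beyond the punch. The deposited tables hold 1 pooled result for each of the 8 comparisons of a later day with D0 and no value for a single animal, so the errors given below are counting errors and leave out the spread between animals.

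Basement membranes are thin sheets of matrix under epithelia and around blood vessels, nerves, muscle fibres and fat cells. Type IV collagen forms their network, from heterotrimers of alpha1 and alpha2 chains in nearly all tissues and from the alpha3, alpha4, alpha5 and alpha6 chains at more restricted sites, with alpha5 and alpha6 chains in the basement membrane of skin. Type VII collagen makes the anchoring fibrils that tie the epidermal basement membrane to the dermis, type XVII is a transmembrane collagen of the hemidesmosome in basal keratinocytes, and types XV and XVIII are proteoglycan collagens whose C-terminal fragments are known as restin and endostatin.

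The mouse genes lie on GRCm38, the assembly also known as mm10, which the submitters' notes name. *Col4a1* (chr8:11198423-11312826, minus strand) and *Col4a2* (chr8:11312805-11449287, plus strand) are arranged head to head, and their gene models overlap by 22 bases. *Col4a6* (chrX:141165403-141474076, minus strand) and *Col4a5* (chrX:141475385-141689234, plus strand) are also head to head, 1308 bases apart. *Col7a1* lies at chr9:108953586-108984875 on the plus strand and *Col15a1* at chr4:47208161-47313167 on the plus strand. *Col17a1* lies at chr19:47646344-47692094 and *Col18a1* at chr10:77052178-77166548, both on the minus strand. The libraries were made with a directional kit, and the genes of a pair lie on opposite strands. Whether strand was used in counting is not given in the sources used here.

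All 8 genes share the Gly-X-Y repeat, in which a glycine codon (GGN) is followed by 2 further codons. In the reference transcripts of *M. musculus*, runs of at least 4 such triplets took up 79.6% of the codons of *Col4a1*, 75.4% of *Col4a2*, 80.01% of *Col4a5* and 76.8% of *Col4a6*, in 22 to 25 separate runs each. The share was 48.4% in *Col7a1*, whose longest run had 75 triplets, 38.9% in *Col17a1*, 35.4% in *Col18a1* and 26.1% in *Col15a1*, whose longest run had 30. A repeat of this kind could draw reads or alignments of one chain to another. The stretches below show examples of the *A. cahirinus* contigs beside their own chain. Each is 90 coding bases from a long Gly-X-Y run of the reference transcript with its best ungapped counterpart in the *A. cahirinus* component. A stretch was kept only where its counterpart reached a set share of matching bases, so a close match was a condition of the choice. Capitals mark the glycine codons in *M. musculus* and, in *A. cahirinus*, the bases that differ from the *M. musculus* line above.
Col4a1 M. musculus: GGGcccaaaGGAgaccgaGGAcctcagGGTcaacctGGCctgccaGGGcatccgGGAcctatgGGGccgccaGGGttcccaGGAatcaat
Col4a1 A. cahirinus: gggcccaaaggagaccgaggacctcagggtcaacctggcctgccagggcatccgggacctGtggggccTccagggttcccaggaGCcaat
Col4a2 M. musculus: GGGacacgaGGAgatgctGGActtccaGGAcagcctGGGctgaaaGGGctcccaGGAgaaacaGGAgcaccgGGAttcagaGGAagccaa
Col4a2 A. cahirinus: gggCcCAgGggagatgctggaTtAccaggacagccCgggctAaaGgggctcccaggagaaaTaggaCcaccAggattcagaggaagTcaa
Col4a5 M. musculus: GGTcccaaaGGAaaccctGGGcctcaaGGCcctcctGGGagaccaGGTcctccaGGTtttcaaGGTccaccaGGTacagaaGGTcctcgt
Col4a5 A. cahirinus: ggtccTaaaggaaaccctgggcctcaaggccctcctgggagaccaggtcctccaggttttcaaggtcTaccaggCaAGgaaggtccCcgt
Col4a6 M. musculus: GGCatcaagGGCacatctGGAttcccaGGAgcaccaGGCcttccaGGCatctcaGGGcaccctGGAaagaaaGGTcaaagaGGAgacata
Col4a6 A. cahirinus: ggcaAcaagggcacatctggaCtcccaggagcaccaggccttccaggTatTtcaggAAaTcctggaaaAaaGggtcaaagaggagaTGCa
Col7a1 M. musculus: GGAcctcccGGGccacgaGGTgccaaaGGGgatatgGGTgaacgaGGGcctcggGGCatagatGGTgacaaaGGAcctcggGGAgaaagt
Col7a1 A. cahirinus: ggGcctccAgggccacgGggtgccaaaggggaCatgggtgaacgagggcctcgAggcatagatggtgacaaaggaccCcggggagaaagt
Col15a1 M. musculus: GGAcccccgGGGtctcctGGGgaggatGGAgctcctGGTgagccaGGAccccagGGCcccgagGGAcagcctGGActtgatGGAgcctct
Col15a1 A. cahirinus: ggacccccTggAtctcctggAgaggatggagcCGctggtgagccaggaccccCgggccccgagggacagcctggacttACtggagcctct
Col17a1 M. musculus: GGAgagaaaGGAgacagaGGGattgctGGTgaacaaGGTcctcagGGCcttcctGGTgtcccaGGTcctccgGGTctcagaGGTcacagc
Col17a1 A. cahirinus: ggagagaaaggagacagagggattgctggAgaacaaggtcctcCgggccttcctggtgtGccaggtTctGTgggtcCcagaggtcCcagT
Col18a1 M. musculus: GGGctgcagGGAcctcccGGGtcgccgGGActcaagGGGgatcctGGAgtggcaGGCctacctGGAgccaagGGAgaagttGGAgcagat
Col18a1 A. cahirinus: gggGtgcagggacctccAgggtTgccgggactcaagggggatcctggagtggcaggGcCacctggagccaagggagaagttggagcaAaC

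Over these 90 bases, the *A. cahirinus* stretch of *Col4a1* matched *M. musculus* at 86 bases, that of *Col4a2* at 77, that of *Col4a5* at 84 and that of *Col4a6* at 78. The match was 84 for *Col7a1*, 82 for *Col15a1*, 81 for *Col17a1* and 83 for *Col18a1*. Against the stretches of the other 3 type IV chains, the 4 *A. cahirinus* type IV stretches matched at 40 to 55 bases. The stretches come from different places in the chains and were not aligned to each other. This count therefore cannot show whether reads of one chain were kept apart from another. Over the whole best alignment, identity was 91.0% over 3026 bases for *Col4a1*, 89.5% over 3576 for *Col4a2*, 93.7% over 5217 for *Col4a5* and 90.2% over 1830 for *Col4a6*. It was 91.6% over 3515 bases for *Col7a1*, 89.75% over 2234 for *Col15a1*, 90.6% over 1485 for *Col17a1* and 90.25% over 1620 for *Col18a1*. For 7 of the 8 genes, every transcript of the component with an alignment matched its own gene best. The exception was *Col15a1*, where 62 of 63 did and 12 also aligned to *Col18a1*, so the reads of both genes may not be fully separated there. The *Col18a1* component aligned to *Col9a2* as well in 5 transcripts, and 22 of the 404 aligned transcripts of *Col7a1* also aligned to *Ucn2*. In *M. musculus*, where gene numbers were matched to genes by their order along the genome, the probability of the match was lowest for *Col15a1* (0.85) and next for *Col17a1* (0.97).

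A gene was called when the deposited posterior probability of differential expression was at least 0.95. In *A. cahirinus*, 5, 6, 6 and 6 of the 8 genes were called from D5 to D20, whereas 2.75%, 2.16%, 2.44% and 1.85% of all components were called on these days. In *M. musculus*, 8, 8, 8 and 7 were called, against 30.0%, 29.2%, 25.7% and 24.2% of all genes. All 8 genes had a mean of at least 10 reads in the larger group of every comparison, where calls were more frequent. Among *A. cahirinus* components at or above this mean, 7.52%, 5.06%, 5.13% and 4.02% were called higher after injury from D5 to D20, and 4.09%, 3.37%, 4.11% and 3.86% were called lower. In *M. musculus*, 23.8%, 21.3%, 18.9% and 17.6% were called higher and 19.4%, 19.6%, 17.9% and 17.0% lower. Of the 8 genes, 4, 4, 5 and 4 were called higher in *A. cahirinus* and 5 on each day in *M. musculus*, while 1, 2, 1 and 2 were called lower in *A. cahirinus* against 3, 3, 3 and 2 in *M. musculus*. The median log2 fold change over the 8 genes was 0.22, 0.92, 0.92 and 0.62 in *A. cahirinus*, while *M. musculus* had 1.29, 1.72, 1.83 and 1.63. Over all features with a mean of at least 10, it lay between -0.02 and 0.02 in the 8 comparisons. The genes did not move as 1 group, as the plot of change by day shows.

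**Figure D1:**
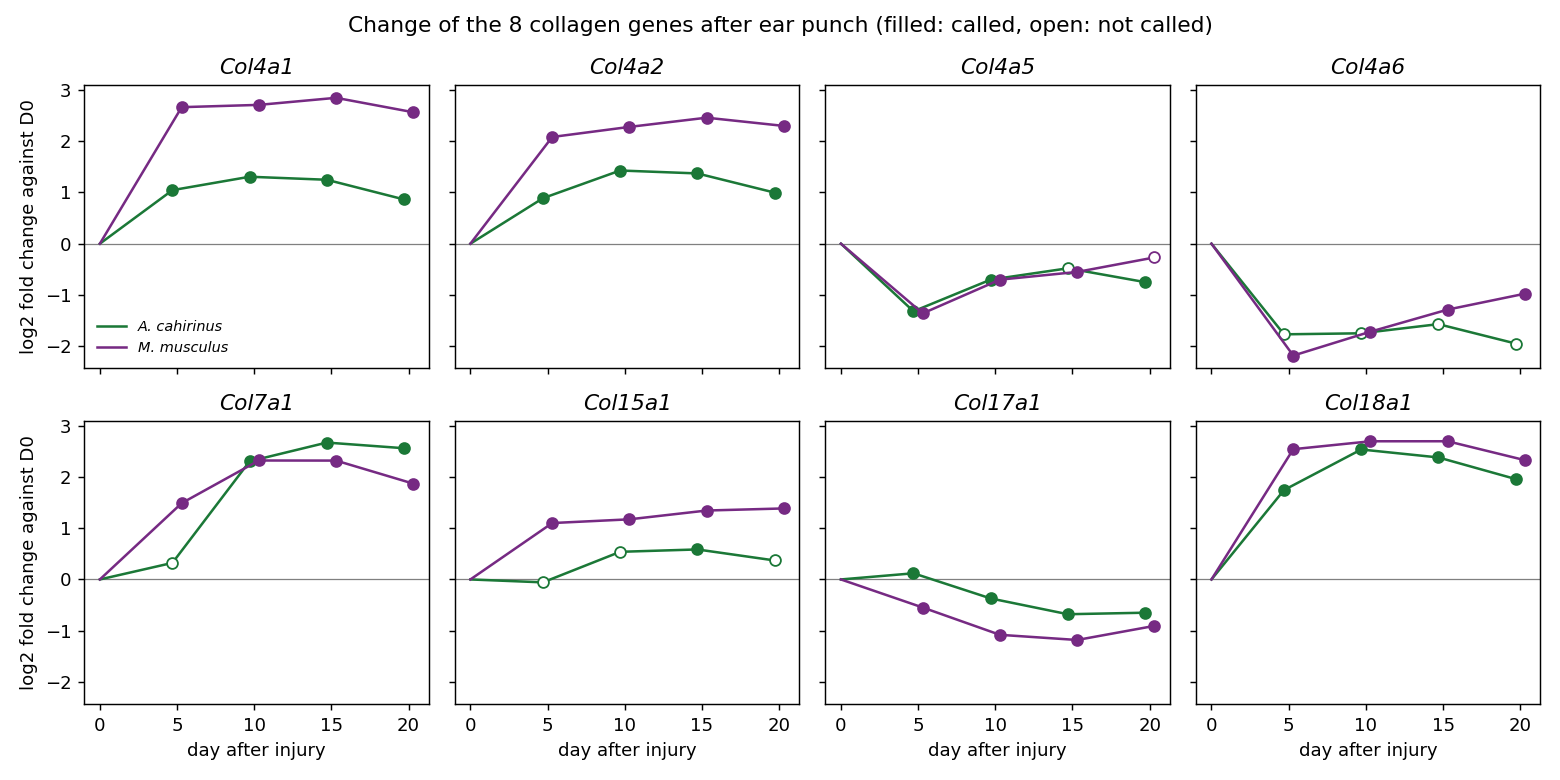
Log2 fold change against D0 (y axis) by day after injury (x axis) for each of the 8 genes, in *A. cahirinus* (green) and *M. musculus* (purple), with points moved slightly apart in x. Filled points were called at a posterior probability of at least 0.95 and open points were not. *Col4a1*, *Col4a2* and *Col18a1* lie above 0 on every day in both species, and *Col4a5* and *Col4a6* lie below it.

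The broadly expressed chains of type IV collagen, *Col4a1* and *Col4a2*, rose at every time point in both species, with larger fold changes in *M. musculus*. In *A. cahirinus*, the level of *Col4a1* was 2080.1 normalized reads per library at D0 and 4287, 5140.4, 4935 and 3783 at D5, D10, D15 and D20. The *M. musculus* level was 876 at D0 and 5539, 5713, 6284 and 5172 in turn on the later days. The later levels of *Col4a1* were thus all above D0, by 1.82- to 2.47-fold in *A. cahirinus* and by 5.91- to 7.18-fold in *M. musculus*. The log2 fold changes were 1.04, 1.30, 1.246 and 0.86 in the former and 2.66, 2.71, 2.84 and 2.56 in the latter, with counting errors of 0.02 to 0.03.

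*Col4a2*, the obligate partner of *Col4a1* in the same trimer, went from 1229.7 reads at D0 to 2273, 3306, 3178 and 2453 at D5, D10, D15 and D20 in *A. cahirinus*. In *M. musculus* it went from 782 at D0 to 3305, 3787, 4289 and 3838 in turn on the later days. The fold changes ranged from 1.85 to 2.69 in *A. cahirinus*, with the highest level at D10, and from 4.23 to 5.49 in *M. musculus*, with the highest level at D15. A second *A. cahirinus* component that matched *Col4a2* best, with a mean of 417 reads at D0, was called higher on all 4 days, with log2 fold changes of 1.013, 1.5004, 1.396 and 1.11. Both chains therefore rose together, but their ratio did not stay the same in *M. musculus*. The number of *Col4a2* reads for each *Col4a1* read was 0.893 at D0 and 0.597, 0.663, 0.683 and 0.742 at D5, D10, D15 and D20. In *A. cahirinus* this ratio was 0.591 at D0 and 0.530, 0.643, 0.644 and 0.648 afterwards, which is 0.897 to 1.097 times its value at D0.

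*Col4a5* and *Col4a6*, the chains of the epidermal basement membrane network, had levels below D0 on every later day in both species, although the component used for *Col4a6* in *A. cahirinus* was not called. *Col4a5* had 321 reads at D0 in *A. cahirinus*, and 129, 198, 230.2 and 191 at D5, D10, D15 and D20. In *M. musculus* it had 349 at D0 and 136, 214, 238 and 289 on the later days. It fell most at D5, to 40.1% of D0 in *A. cahirinus* and 39.0% in *M. musculus*, with a log2 fold change of -1.32 in the former and -1.36 in the latter (counting error 0.09 and 0.08). At D10 both species stood at 61.5% of D0. At D20 the level was 59.5% of D0 in *A. cahirinus*, which was called, and 82.97% in *M. musculus*, which was not (posterior probability 0.64). The D15 value of *A. cahirinus*, 71.7% of D0, was not called either (0.89).

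*Col4a6* in *M. musculus* went from 420 reads at D0 to 92.5, 128, 172 and 213 at D5, D10, D15 and D20, and it was called lower on all 4 days. The log2 fold changes there were -2.18, -1.72, -1.29 and -0.98, each smaller than the one before, with counting errors of 0.07 to 0.10. In *A. cahirinus* the component of *Col4a6* was thinly covered, with 38.6 reads at D0 and 11.3, 11.5, 13.0 and 10.02 at D5, D10, D15 and D20. Its log2 fold changes were -1.77, -1.75, -1.57 and -1.95 with counting errors of 0.25 to 0.29, and none was called, with posterior probabilities of 0.07, 0.90, 0.08 and 0.89. The gene was split over 8 components in this assembly, more than any other of the 8 genes. A second one, with 22.2 reads at D0, was called lower at D5, D10 and D15 with log2 fold changes of -1.92, -1.80 and -1.84, but not at D20. Summed over the 8 components, *Col4a6* had a log2 fold change of -1.85, -1.76, -1.69 and -1.52.

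Between the partners on chromosome X, *Col4a6* had the lower share of its D0 level on every later day. The ratio of *Col4a6* to *Col4a5* reads in *M. musculus* was 1.204 at D0 and 0.681, 0.596, 0.724 and 0.738 in turn on the later days. In *A. cahirinus* it went from 0.120 at D0 to 0.0881, 0.0582, 0.0565 and 0.0525 with 1 component, and went from 0.321 to 0.222, 0.154, 0.139 and 0.188 with all components summed. The size of this ratio in *A. cahirinus* depends on how much of *Col4a6* the components hold, but with either count it lay between 0.433 and 0.732 times its D0 value on the later days, against 0.495 to 0.613 times in *M. musculus*. The balance between both type IV pairs moved much further. Summed reads of *Col4a1* and *Col4a2* were 2.16 times those of *Col4a5* and *Col4a6* at D0 in *M. musculus*, and 38.7, 27.8, 25.8 and 17.9 times at D5, D10, D15 and D20. In *A. cahirinus* they were 9.20 times at D0 and 46.8, 40.4, 33.3 and 31.0 times afterwards. In both species the ratio was highest at D5 and declined from then to D20 without returning to its D0 value.

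**Figure D2:**
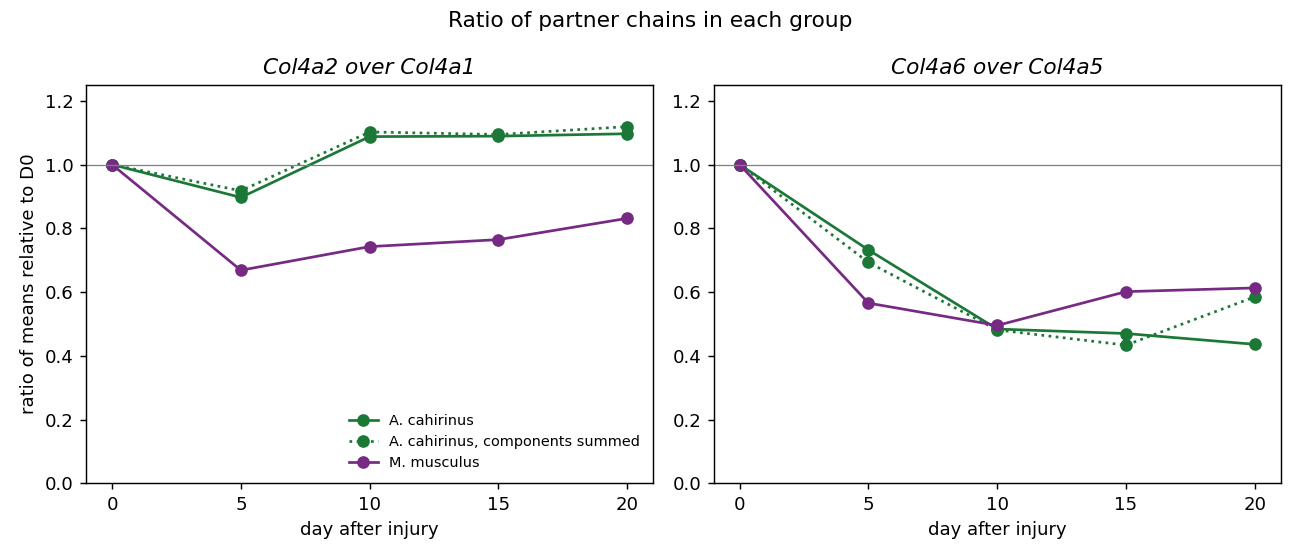
Ratio of normalized read counts of *Col4a2* over *Col4a1* (left) and *Col4a6* over *Col4a5* (right), relative to D0 (y axis), by day after injury (x axis), in *A. cahirinus* (green, dotted with all components summed) and *M. musculus* (purple). *Col4a2* over *Col4a1* stays between 0.897 and 1.097 in *A. cahirinus* with 1 component and falls to 0.668 in *M. musculus*, while *Col4a6* over *Col4a5* lies below 1 on every later day in both.

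*Col7a1*, the collagen of anchoring fibrils, rose in both species, and was first called at D5 in *M. musculus* and at D10 in *A. cahirinus*. The study reported that the epidermis closed over the cut edge more slowly in *A. cahirinus*. The same day therefore need not be the same stage of healing in both species. It had 519.9 reads at D0 in *A. cahirinus*, and 650.4, 2566, 3306 and 3062 at D5, D10, D15 and D20. *M. musculus* had 1129.7 at D0 and 3167, 5637, 5629 and 4124 in turn on the later days. The D5 value of *A. cahirinus* was 1.251 times that of D0 and was not called (posterior probability 0.46), whereas that of *M. musculus* was 2.80 times D0 and was called. From D10 on, *Col7a1* was called higher in both species, at 4.93-, 6.36- and 5.89-fold in *A. cahirinus*, with 4.99-, 4.98- and 3.65-fold in *M. musculus*. Of the 8 genes it had the widest range of log2 fold changes over the 4 days in *A. cahirinus*, 2.35, against 0.83 in *M. musculus*.

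*Col17a1*, the hemidesmosome collagen of basal keratinocytes, was the most abundant of the 8 genes at D0 in both species. It had 5906 reads at D0 in *A. cahirinus*, and 6418, 4569, 3691 and 3768 at D5, D10, D15 and D20. *M. musculus* had 12458 at D0 and 8525, 5896, 5498 and 6649 in turn on the later days. It fell in *M. musculus* on all 4 days, to 68.4%, 47.3%, 44.1% and 53.4% of D0. In *A. cahirinus* it fell from D10 on, to 77.4%, 62.5% and 63.8% of D0, but at D5 it was 8.67% above D0 and called higher (posterior probability 0.97). A second component of *Col17a1* with 3359 reads at D0 was also called lower from D10 on, by -0.40, -0.72 and -0.67 on the log2 scale, but its D5 value of 0.07 was not called (0.0051).

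*Col18a1*, the endostatin-bearing collagen of vascular and epithelial basement membranes, rose at every time point in both species. In *A. cahirinus* it went from 254 reads at D0 to 849, 1469, 1319 and 986 at D5, D10, D15 and D20. Levels in *M. musculus* went from 489 at D0 to 2846, 3167, 3167 and 2454 in turn on the later days. Fold changes were 3.35 to 5.79 in *A. cahirinus*, below the 5.01 to 6.47 of *M. musculus* on each day.

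*Col15a1*, which stands beside *Col18a1* in the same small family, had a larger difference between the species than its relative. Its match to a gene number in *M. musculus* had a probability of 0.85, and 12 transcripts of its *A. cahirinus* component also aligned to *Col18a1*. In *M. musculus* it went from 478 reads at D0 to 1025, 1078, 1214 and 1249 at D5, D10, D15 and D20, and was called higher each time, by 2.14- to 2.61-fold. In *A. cahirinus* it had 918 reads at D0 and 883, 1334, 1377 and 1187 in turn on the later days. The D15 value there, 1.4998-fold, was the only one called. The values at D5 (0.96-fold), D10 (1.45-fold) and D20 (1.29-fold) were not, with posterior probabilities of 0.00031, 0.87 and 0.0028. A second component of 214 reads at D0 was called on no day and had log2 fold changes of -0.43, 0.16, 0.25 and 0.12.

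The question of the design is how regenerating and scarring ears differ, and the change of each gene can be set side by side between the species. The tables were normalized separately and the difference itself could not be tested. All injured *A. cahirinus* tissue was labelled regenerating and all injured *M. musculus* tissue fibrotic. Outcome, species and the kind of reference (de novo assembly or annotated genes) therefore cannot be told apart in these differences. Averaged over the 4 days, the log2 fold change of *Col4a1* was 1.11 in *A. cahirinus* against 2.69 in *M. musculus*, a difference (*A. cahirinus* minus *M. musculus*) of -1.58. That of *Col4a2* was 1.17 against 2.28, a difference of -1.11, and that of *Col15a1* was 0.36 against 1.2499, a difference of -0.89. For these 3 genes the difference was negative on all 4 days. It was also negative on every day for *Col18a1*, from -0.80 at D5 to -0.16 at D10, with a mean of -0.41. *Col17a1* was the only one of the 8 genes with a positive difference on all 4 days, of 0.67, 0.71, 0.50 and 0.26. All 4 comparisons of a species share the same D0 group, so an equal sign on 4 days is not independent evidence. The remaining 3 genes had differences of both signs. *Col7a1* had -1.16, -0.02, 0.35 and 0.69 from D5 to D20, which average to -0.03. *Col4a5* had 0.04, 0.00, 0.07 and -0.48, and *Col4a6* had 0.41, -0.03, -0.28 and -0.97. With its 8 components summed, *Col4a6* in *A. cahirinus* was nearest to D0 at D20 (-1.52), as in *M. musculus* (-0.98), whereas the component used alone was furthest from D0 on that day (-1.95).

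**Figure D3:**
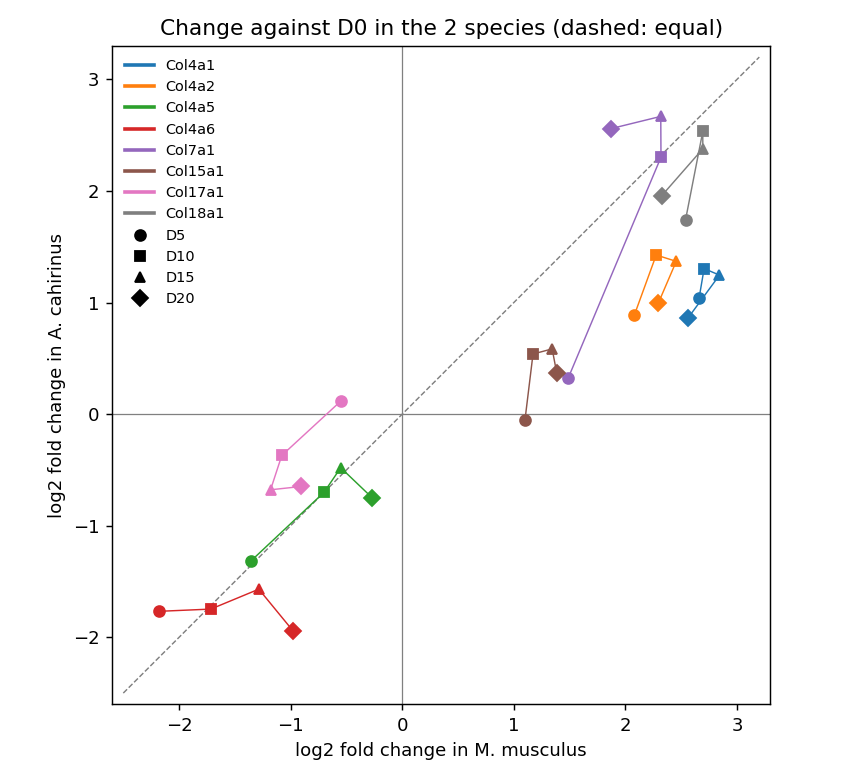
Log2 fold change against D0 in *A. cahirinus* (y axis) and *M. musculus* (x axis) for the 8 genes (colours), with a point for each day and a dashed line where both are equal. *Col4a1*, *Col4a2*, *Col15a1* and *Col18a1* lie below the line on all 4 days, *Col17a1* lies above it, and *Col7a1* crosses it between D10 and D15.

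Levels of different genes were compared per kb of the longest transcript. In *M. musculus* at D0, *Col17a1* stood at 2249 reads per kb, far above the other 7. *Col4a1* (132), *Col7a1* (123) and *Col4a2* (122) came next, and the last pair differed by less than their counting errors of 1.72% and 2.06%. *Col15a1* (89.95) and *Col18a1* (87.0) followed, with counting errors of 2.64% and 2.61%, and *Col4a6* (63.1) and *Col4a5* (53.8) were lowest. At D15 the order was *Col17a1* (993), *Col4a1* (948), *Col4a2* (667), *Col7a1* (612), *Col18a1* (563), *Col15a1* (228), *Col4a5* (36.7) and *Col4a6* (25.9). In *A. cahirinus* at D0, *Col17a1* (728 reads per kb) and *Col4a1* (468) also led, followed by *Col4a2* (315), *Col15a1* (158), *Col18a1* (63.6), *Col4a5* (49.8), *Col7a1* (37.3) and *Col4a6* (21.0). The last place of *Col4a6* rests on 1 of its 8 components, since its ratio to *Col4a5* per kb at D0 was 0.422 with that component and 1.12 with all summed. The place of *Col7a1* below *Col4a5* rests on a contig longer than the mouse transcript. Lengths in *A. cahirinus* are those of the longest contig, from 1842 bases for *Col4a6* to 13942 for *Col7a1*, where the mouse transcripts have 6648 and 9198, and *Col17a1* was split over 3 components, so the order of *Col4a1* and *Col17a1* after D0 is not given for this species. At D5, for example, the 3 components of *Col17a1* summed to 9949 reads against 6418 in the one used.

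**Figure D4:**
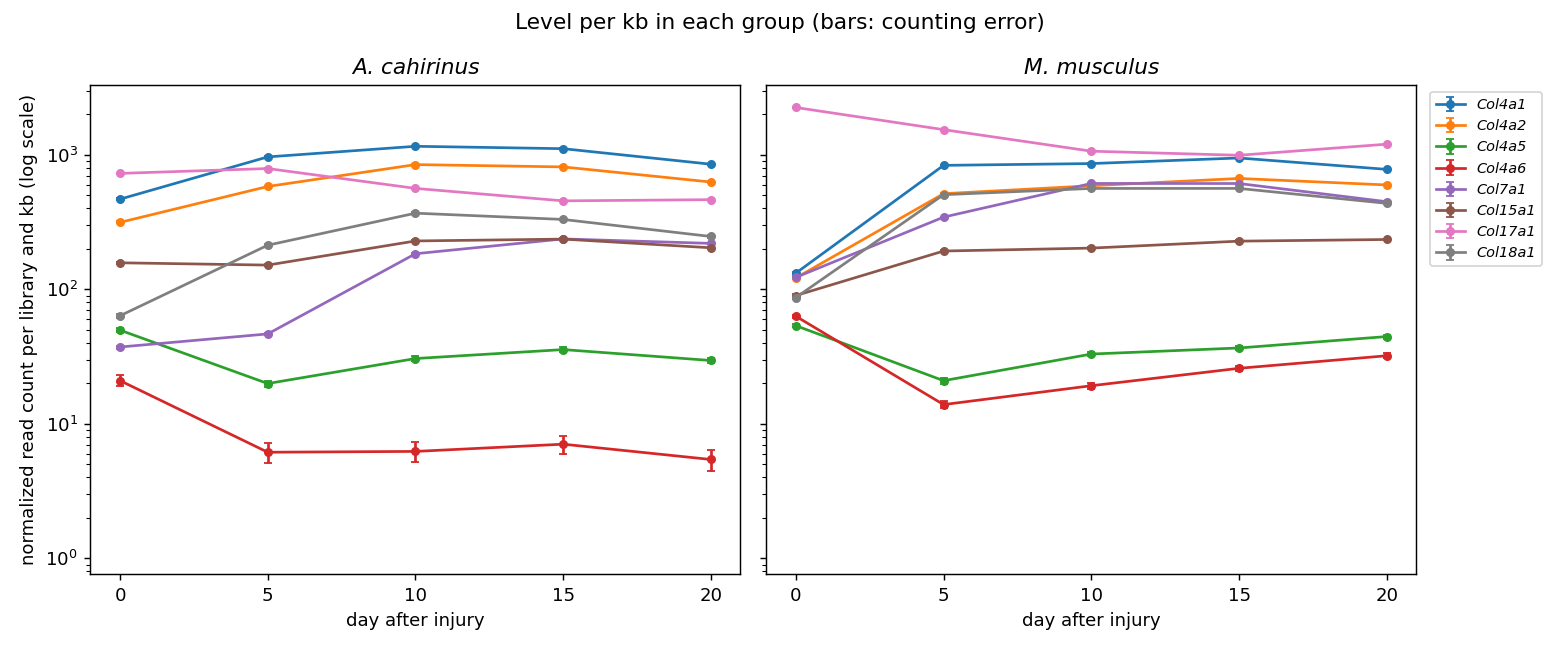
Normalized read count per library and kb of the longest transcript (y axis, log scale) by day after injury (x axis) for the 8 genes in *A. cahirinus* (left) and *M. musculus* (right), with bars for the counting error of the pooled mean. *Col4a1*, *Col4a2*, *Col7a1* and *Col18a1* move up from D0 and *Col4a5* and *Col4a6* move down, and *Col17a1* is highest at D0 in both species.

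Around these collagens, the other parts of the basement membrane moved unevenly. For this and the following lists, the background is the share called among all features with a mean of at least 10. Over the 4 days it was 4.02% to 7.52% higher and 3.37% to 4.11% lower in *A. cahirinus*. In *M. musculus* it was 17.6% to 23.8% higher and 17.0% to 19.6% lower, near the share of laminins called lower there. Of 9 linker genes and other type IV chains, 0, 2, 4 and 3 were called higher and 3, 2, 2 and 2 lower in *A. cahirinus* at D5, D10, D15 and D20, with list medians of -0.36, 0.24, 0.28 and 0.00. Of the 8 with a value in *M. musculus*, 4, 4, 4 and 5 were called higher and 4, 3, 3 and 1 lower, with medians of 0.13, 0.82, 0.87 and 1.33. The remaining type IV chains, *Col4a3* and *Col4a4*, went with *Col4a5* and *Col4a6* rather than with *Col4a1*. *Col4a3* had the lowest mean of its list in both species, -2.05 in *A. cahirinus* and -2.36 in *M. musculus*, and was called lower on all 4 days in each. *Hspg2*, which encodes perlecan, had the highest mean in *A. cahirinus* (1.48), and *Nid2*, a nidogen that links laminin to type IV collagen, had the highest in *M. musculus* (2.22). Of 11 laminin chains, 4, 5, 4 and 3 were called higher and 3, 2, 2 and 0 lower in *A. cahirinus*, and 6, 4, 4 and 6 higher and 2, 3, 2 and 2 lower in *M. musculus*, with medians from 0.08 to 0.34 and from 0.19 to 0.46. *Lamb1* had the highest mean of the laminins in *M. musculus* (2.21) and *Lama1* the lowest (-1.41, called on no day). In *A. cahirinus* *Lama1* had the highest (2.61, with 0.84 reads at D0 and called on 1 day) and *Lamc3* the lowest (-0.84).

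Most genes for folding and cross-linking of collagen rose in both species. In *A. cahirinus*, 7, 12, 11 and 10 of 12 were called higher at D5, D10, D15 and D20 and none lower, with medians of 0.62, 1.15, 1.02 and 0.81. In *M. musculus*, 8, 9, 9 and 8 of the 10 with a value were called higher and none lower, with medians of 1.11, 1.42, 1.35 and 0.97. *Pxdn*, peroxidasin, which forms the sulfilimine bonds between type IV collagen trimers, had the highest mean of the list in *A. cahirinus*, 2.73, with log2 fold changes of 0.71, 3.51, 3.55 and 3.15. In *M. musculus* *Pxdn* had 1.76, 2.54, 2.52 and 2.24, and the highest mean was that of *Serpinh1*, the collagen chaperone HSP47 (2.42). The lowest were *P4ha1* in *A. cahirinus* (0.29) and *P4ha2* in *M. musculus* (0.21), both subunits of the prolyl 4-hydroxylase. Of the proteases and sheddases that process these collagens, 8, 7, 7 and 6 of 9 were called higher in *A. cahirinus* and 5, 5, 4 and 4 of 7 in *M. musculus*, and none lower. *Mmp9*, which cleaves type IV collagen, had the highest mean in *A. cahirinus* (3.94) and was not placed in *M. musculus*, where *Mmp14* was highest (2.33). *Tll1* was lowest in both (-0.56 and -0.18) and called on no day.

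Genes of epidermal anchorage and of basement membrane receptors were called in both directions. Of all *M. musculus* features with a mean of at least 10, 17.6% to 23.8% were called higher and 17.0% to 19.6% lower. The smaller *M. musculus* counts below lie near these shares. In *A. cahirinus* the shares were 4.02% to 7.52% higher and 3.37% to 4.11% lower. Of 10 genes of the hemidesmosome and epidermal anchorage, 5, 1, 2 and 0 were called higher and 4, 3, 4 and 2 lower in *A. cahirinus*, and 2, 1, 1 and 2 higher and 4, 4, 4 and 3 lower in *M. musculus*. *Plec*, plectin, had the highest mean of the list in both species (0.45 and 0.50) and *Frem2*, a matrix protein of the epidermal basement membrane, the lowest (-0.64 and -1.38). Of 6 receptors, 2, 3, 3 and 3 were called higher and 1, 1, 3 and 3 lower in *A. cahirinus*, and 3 higher on each day and 1, 0, 1 and 0 lower in *M. musculus*. *Itgb1*, the integrin beta1 subunit, was highest in both (1.30 and 0.80), with *Dag1* lowest in *A. cahirinus* (-0.40) and *Itga2* in *M. musculus* (-0.39). List medians lay between -0.31 and 0.54 for the anchorage genes and between 0.06 and 0.34 for the receptors.

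Among the 90 list genes with a value in all 8 comparisons, those with log2 fold changes that lay nearest to each collagen were found by Euclidean distance over the 8 values. The closest match of all was that of *Col17a1* with *Trp63*, the transcription factor p63 of basal keratinocytes, at a distance of 0.25. *Trp63* had log2 fold changes of 0.19, -0.55, -0.68 and -0.62 in *A. cahirinus*, with -0.48, -0.999, -1.198 and -1.015 in *M. musculus*, where *Col17a1* had 0.12, -0.37, -0.68 and -0.65, and -0.55, -1.08, -1.18 and -0.91. The next nearest to *Col17a1* was *Fermt1*, kindlin-1 of the basal epidermis, at 1.32. *Col15a1* was nearest to *Lama4*, the laminin alpha4 chain of vascular basement membranes (0.52), and then to *Plod1* (0.86). *Col4a6* was nearest to *Col4a4* (0.66), which had -1.94, -1.77, -1.50 and -1.78 in *A. cahirinus*, with -1.98, -1.999, -1.60 and -1.36 in *M. musculus*, the last of which was not called. *Col4a6* was much further from *Plin1*, its second match (1.75), and from its chromosomal partner *Col4a5* (2.58). *Col4a2* was nearest to *P3h1*, a prolyl 3-hydroxylase (0.73), and to *Bmp1*, the procollagen C-proteinase (0.85), and stood at 0.90 from *Col4a1*. *Col4a1* itself was nearest to *P3h1* (1.36) and *Nid2* (1.403) among the list genes, *Col18a1* to *Serpinh1* (0.86) and *Mmp14* (1.43), and *Col7a1* to *Mmp14* (1.35) and *Hspg2* (1.499). *Col4a5* was nearest to *Smoc2* (1.35) and *Cspg4* (1.53).

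**Figure D5:**
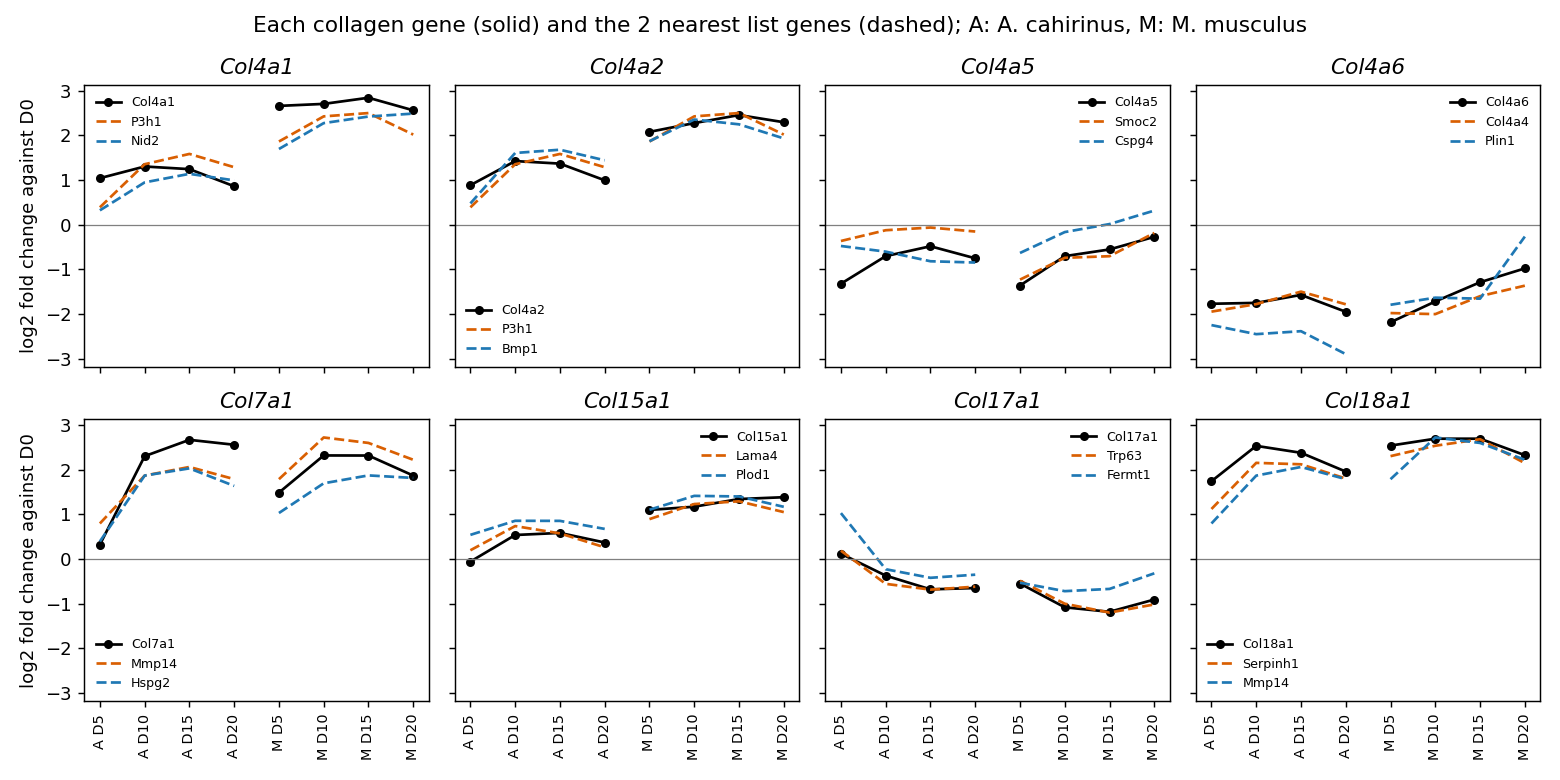
Log2 fold change against D0 (y axis) of each collagen gene (black) and of the 2 list genes nearest to it (dashed) in the 8 comparisons (x axis, A for *A. cahirinus* and M for *M. musculus*). *Trp63* follows *Col17a1* at a distance of 0.25 and *Col4a4* follows *Col4a6* at 0.66, the closest of the 8 genes together with *Lama4* for *Col15a1* at 0.52.

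The tissue held many cell types, and in whole-tissue RNA fewer cells of a type and less RNA per cell cannot be told apart. No marker of the 7 cell type lists stayed below 1 read in every group of a species, among those with a value. Markers of skeletal muscle fibres, which have a basement membrane of their own, were called lower on every day in 5 of 5 genes in *A. cahirinus* and 6 of 6 in *M. musculus*, and their summed level spanned 4809 to 54539.6 reads per library in the former and 3539.9 to 35069 in the latter, highest at D0 in both. *Tnni2* (-3.61) and *Myh4* (-3.50) had the lowest means in the respective species, and *Mylpf* (-2.45) and *Acta1* (-1.97) the highest. Adipocyte markers were called lower in 4, 5, 5 and 5 of 5 genes in *A. cahirinus* and in 3, 3, 2 and 1 of 3 in *M. musculus*, with summed levels of 1257 to 9196 and of 1280.3 to 2553. *Adipoq* was lowest in both (-2.82 and -1.57), and *Fabp4* (-1.79) and *Lpl* (-0.69) highest. Schwann cell markers were called lower in 5, 6, 6 and 5 of 6 and in 5, 4, 3 and 3 of 6, with summed levels of 860 to 4388 and of 706 to 2616. *S100b* was lowest in *M. musculus* (-2.89), and *Sox10* was highest in both species (-0.92 and 0.21). *Col4a5*, *Col4a6*, *Col4a3* and *Col4a4* had levels below D0 on every later day, as did the summed levels of these 3 lists, but the lowest days differed. *Col4a5* was lowest at D5 in both species, whereas the muscle sum was lowest at D20 in both. Adipocyte and Schwann cell sums were lowest at D20 and D15 in *A. cahirinus* and at D5 and D10 in *M. musculus*. The part of these cells in the values of the 4 chains was not tested.

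Endothelial markers were called mainly higher in *M. musculus* and mainly lower at D20 in *A. cahirinus*, and the difference was not tested. In *M. musculus*, 9, 6, 7 and 7 of 10 were called higher and none lower, with list medians of 1.08, 0.76, 0.71 and 0.70 and summed levels of 1758 to 3621 reads, lowest at D0. In *A. cahirinus*, 1, 1, 1 and 0 were called higher and 1, 1, 3 and 8 lower, with medians of -0.26, 0.00, -0.30 and -0.74 and summed levels of 3221 to 5100.3. *Tie1* had the highest mean in *M. musculus* (1.60) and *Vwf* the lowest (0.35), while *Vwf* had the highest in *A. cahirinus* (0.71) and *Pecam1* the lowest (-0.55). Pericyte and smooth muscle markers were called higher in 4 of 7 on each day in *M. musculus* and in 0, 2, 2 and 2 of 7 in *A. cahirinus*, and lower in 2, 1, 1 and 1 and in 4, 2, 3 and 4. *Acta2* (1.83) and *Tagln* (1.11) had the highest means in *M. musculus* and *A. cahirinus*, and *Des* the lowest in both (-1.61 and -1.25). Summed levels were 4296 to 5177 and 8583 to 12948. The pericyte and smooth muscle medians were -0.47, 0.04, -0.12 and -0.49 in *A. cahirinus*, against 0.70, 1.03, 1.03 and 0.72 in *M. musculus*. Fibroblast markers were called higher in 1, 6, 6 and 6 of 6 in *A. cahirinus* and in 4, 6, 5 and 6 of 6 in *M. musculus*, with summed levels of 30388 to 241987 and of 44468 to 469764, lowest at D0. At D5 in *A. cahirinus*, 1 of the 6 was called lower. *Col3a1* (2.22) and *Col1a1* (3.47) had the highest means and *Fap* the lowest in both (0.43 and 0.64). The fibroblast medians were 0.05, 1.67, 2.19 and 1.97 in *A. cahirinus*, against 1.59, 2.18, 2.53 and 2.50 in *M. musculus*. The mean log2 fold changes of *Col4a1*, *Col4a2*, *Col15a1* and *Col18a1* and the medians of all 3 of these lists were lower in *A. cahirinus*. The part of these cells in the values of the collagens was not tested.

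Basal keratinocyte markers were uneven. In *A. cahirinus*, 3 of 5 had a component of their own, of which 2, 1, 1 and 1 were called higher and 0, 1, 2 and 2 lower, with a summed level of 6588 to 24338 reads, highest at D5. *Cdh3* had the highest mean there (1.404) and *Trp63* the lowest (-0.42). In *M. musculus*, 4 had a value, of which 2, 1, 1 and 0 were called higher and 2, 2, 2 and 1 lower, with a summed level of 17087 to 73701, also highest at D5. *Krt14* had the highest mean (0.82, called only at D5) and *Krt15* the lowest (-1.34). The *Krt15* component of *A. cahirinus* also aligned to *Krt14*. At D5 it held 21763 of the 24338 reads, with a log2 fold change of 1.29, opposite in direction to *Krt15* in *M. musculus*. The sum at D5 in *M. musculus* was mostly *Krt14* (70354 reads), which rose, as did *Cdh3* (0.70), while *Krt15* (-2.11) and *Trp63* (-0.48) fell. The part of keratinocyte number in the values of *Col17a1* and *Col7a1* was not tested.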

How the data were processed

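Directional RNA-Seq libraries of ear tissue from 3 animals per species and time point were analysed. The authors aligned *M. musculus* reads to mm10 genes and *A. cahirinus* reads to a de novo assembly, estimated expression with RSEM and compared each day with D0 using EBSeq. The deposited tables hold the authors' own comparisons: a posterior fold change and a real fold change (each a ratio of D0 over the later day) and 2 posterior probabilities, deposited as fractions. They pool the animals. No test was run here, and a gene was called at a deposited posterior probability of at least 0.95. Each group's mean was solved from both deposited fold changes, which differ by a constant shared across a table, and was placed on the D0 scale of the D5 table. Before this scaling, the summed means of a group ranged from 14454829 to 18203633 normalized reads in *A. cahirinus*. In *M. musculus* they ranged from 7330084 to 9409080, so read counts of both species are not on a common scale. The counting error covers 3 pooled libraries only. Recovery of means was tested on simulated data built with the same formulas. That test covers the arithmetic and cannot show whether the deposited fold changes follow these formulas.

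*A. cahirinus* components were named by the top BLASTN bit score, a deposited score, below 99 percent identity, a deposited percent. *M. musculus* gene numbers were named from the listed genes and the order of genes along the reference. Known numbers were held out in parts, each number once, and placed from the rest. Of these, 1729 of 1743 placed numbers were right and 254 of 1997 were not placed. Numbers placed with a probability under 0.8 were left out. List genes named in the text were those with the highest and lowest mean log2 fold change of each list and species, and the 2 of 90 list genes nearest to each collagen. A gene chosen by this rule is not reported here. The members and the 13 lists were chosen with earlier results of these data known. Python 3.11.15, NumPy 2.4.6, pandas 2.3.3, matplotlib 3.10.9 and minimap2 2.31 were used. Alternatives were the other deposited fold change, a probability of 0.99, a least log2 fold change of 1, a pseudocount of 1, centring on the median, summed components and reciprocal best matches. For levels, means left on the scale of their own comparison were a further alternative.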

Additional observations from a re-analysis of the deposited data

Results flagged for a closer look

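*Col17a1* at D5 was called in opposite directions, higher in *A. cahirinus* (log2 fold change 0.12) and lower in *M. musculus* (-0.55). The difference of 0.67 between the species was not tested. Because the study reported slower closure of the epidermis in *A. cahirinus*, D5 need not be the same stage of healing in both. The call in *A. cahirinus* had a posterior probability of 0.97 and is lost at a threshold of 0.99, and both calls are lost with a least log2 fold change of 1. A second *Col17a1* component in *A. cahirinus* had a log2 fold change of 0.07 at D5 and was not called.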

How the results depend on the processing

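No paired analysis was possible because the tables hold 1 pooled value for each comparison, and for the same reason no replicate could be left out. No direction reversed under the alternatives run. With components summed, the mean log2 fold change of *Col15a1* in *A. cahirinus* was 0.30 and its difference between the species -0.95, and the ratio of *Col4a6* to *Col4a5* was 0.321, 0.222, 0.154, 0.139 and 0.188 from D0 to D20. With a least log2 fold change of 1, 3 of the 8 genes were called at D5 and 2 at D20 in *A. cahirinus*. At a probability of 0.99, laminins called higher at D20 in *A. cahirinus* went from 3 to 1. Centring moved log2 fold changes by -0.02 to 0.02. Without the common D0 scale, 33 levels moved and 31 stayed the same. *Col4a2* in *M. musculus* was then highest at D10 (4618 reads) rather than at D15 (4188). Fold changes do not use this scale. The opposite calls of *Col17a1* at D5 end at 0.99, where the *A. cahirinus* value (posterior probability 0.97) is not called. *Col4a6* in *A. cahirinus* had the largest counting errors of log2 fold change, 0.25 to 0.29.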
